A study of Homo sapiens with 8 samples.

Results

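Chromatin accessibility was compared between LX-2 cells kept on a stiff and on a soft matrix for 4 days. LX-2 is an established line derived from human hepatic stellate cells, so that all libraries share 1 genetic background. The cells grew on polyacrylamide hydrogels of about 40 kPa (stiff) or about 2 kPa (soft) with fibronectin crosslinked to the surface, and no other treatment separated the groups. They were profiled by ATAC-seq, in which a transposase inserts sequencing adapters into open chromatin. Each matrix had 2 replicate libraries on day 4 (D4 stiff and D4 soft), which are 4 of the 8 libraries of the series. The study's methods call the replicates of its sequencing experiments biological, while the labels do not say whether they came from separate cultures, and p-values measure only the spread between these libraries. The peaks of the 4 lists, joined wherever they shared 1 bp or more, gave 93074 regions on the human genome build hg19, of 102366 regions when all 8 lists were merged. A region was called stiff-only if both stiff libraries and neither soft library had a peak in it, and soft-only in the opposite case. By this rule 5103 regions were stiff-only and 996 were soft-only, and 41334 had a peak in all 4 lists.

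Hepatic stellate cells store vitamin A in the healthy liver and turn into contractile, collagen-producing myofibroblasts when the liver is injured and its matrix stiffens. Stiffness is sensed through integrins and focal adhesions, and the signal reaches the nucleus through actin tension, through YAP and TAZ, which bind DNA with TEAD factors, through MRTF and SRF, and through kinases that act on AP-1, the JUN and FOS family of transcription factors. NF-kB factors switch on inflammatory genes in the same cells, and open chromatin at distal elements and promoters marks where such factors can bind.

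The day 4 lists held 56362 to 63272 peaks in the soft and 65905 to 72840 in the stiff libraries. Depth was only estimated, since the lists hold no read counts. The background at each peak was recovered from its fold enrichment and p-value. The lowest background of a list was divided by the width of its shortest peak (207 to 261 bp). This estimate was 2.69 and 2.72 fragments per kb in the soft and 2.87 and 3.15 in the stiff libraries. Every stiff library thus had more peaks and a higher estimated depth than every soft library. The part of depth in the counts of stiff-only and soft-only regions was not tested, and the counts of regions, of gene lists and of the genes with most of them, and the promoter, AP-1, TEAD, NF-kB and CTCF shares were repeated with lists cut to an equal number of peaks. Marker genes of liver cell types were looked up at promoters. Of 14 stellate cell markers, 8 or 9 had a promoter peak in each library, while DES, LRAT, LUM, DCN and COL3A1 had none in any list. Of all 19794 protein-coding genes, 12216 to 13314 had one in a library. The stellate share was not above that of all coding genes, so it does not establish the identity of the cells. Of 8 hepatocyte markers at most 1 had a promoter peak in any library, of 6 cholangiocyte markers 2 had one in every library, of 6 endothelial markers in the annotation 1 to 3, and of 7 macrophage and leukocyte markers 3.

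Sequences at the summits are given for some of the regions with the best ranks, picked because they hold an AP-1 or TEAD match. The 201 bp windows below are centred on the summit of the best-ranked peak (hg19, plus strand), with matches to the AP-1 motif (TGACTCA or its reverse complement TGAGTCA) or the TEAD motif (GGAATG or CATTCC) in capitals. The first 4 are stiff-only regions, chosen because they were among the 10 with the best mean rank and held one of these motifs, at chr6:15608721-15608921 (DTNBP1), chr5:110471723-110471923 (WDR36), chr6:25660828-25661028 (SCGN) and chr14:58600547-58600747 (ARMH4). The next 4 are soft-only regions that were among the 6 best ranked and held a motif, at chr2:179269195-179269395 (PRKRA), chr10:112888668-112888868 (ADRA2A), chr12:78282507-78282707 (NAV3) and chr3:84774106-84774306 (CADM2). The last 4 had a peak in all 4 lists and were, in each direction, 2 of those with a motif among the 8 with the largest rank difference. Those at chr6:32223058-32223258 (NOTCH4) and chr5:93554215-93554415 (FAM172A) ranked higher on the stiff matrix, and those at chr5:100113463-100113663 (ST8SIA4) and chr2:211820429-211820629 (CPS1) ranked lower. The region in an exon of EIF3H also held a TEAD match and had a larger fall than that near CPS1, but is not shown. AP-1 matches occurred in windows of every kind, but every window was picked for an AP-1 or TEAD match. The windows therefore do not show how common the motifs are.
DTNBP1: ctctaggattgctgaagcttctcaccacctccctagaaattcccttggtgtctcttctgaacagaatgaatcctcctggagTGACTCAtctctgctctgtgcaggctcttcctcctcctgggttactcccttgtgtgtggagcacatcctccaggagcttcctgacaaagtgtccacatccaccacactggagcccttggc
WDR36: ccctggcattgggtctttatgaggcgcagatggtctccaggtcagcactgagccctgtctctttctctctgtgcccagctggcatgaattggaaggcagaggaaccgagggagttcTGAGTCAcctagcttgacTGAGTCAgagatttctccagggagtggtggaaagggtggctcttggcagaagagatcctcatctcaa
SCGN: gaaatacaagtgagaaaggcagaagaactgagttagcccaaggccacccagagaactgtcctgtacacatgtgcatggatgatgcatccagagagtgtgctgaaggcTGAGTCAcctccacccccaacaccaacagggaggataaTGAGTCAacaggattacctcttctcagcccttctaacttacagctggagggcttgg
ARMH4: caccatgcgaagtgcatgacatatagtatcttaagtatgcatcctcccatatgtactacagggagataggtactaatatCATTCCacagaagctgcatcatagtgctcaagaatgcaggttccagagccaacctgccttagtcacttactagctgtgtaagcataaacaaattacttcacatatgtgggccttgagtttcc
PRKRA: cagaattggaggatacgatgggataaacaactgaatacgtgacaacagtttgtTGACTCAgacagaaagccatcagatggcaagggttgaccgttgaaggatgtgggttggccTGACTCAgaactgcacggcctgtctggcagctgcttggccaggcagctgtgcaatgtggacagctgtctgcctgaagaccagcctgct
ADRA2A: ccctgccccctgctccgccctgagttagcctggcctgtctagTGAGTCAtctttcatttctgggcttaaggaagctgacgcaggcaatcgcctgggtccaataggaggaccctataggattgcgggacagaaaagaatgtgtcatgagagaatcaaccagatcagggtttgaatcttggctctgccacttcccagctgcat
NAV3: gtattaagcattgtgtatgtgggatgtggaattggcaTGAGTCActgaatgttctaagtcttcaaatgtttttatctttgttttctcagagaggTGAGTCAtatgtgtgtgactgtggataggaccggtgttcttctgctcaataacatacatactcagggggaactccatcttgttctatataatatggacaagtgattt
CADM2: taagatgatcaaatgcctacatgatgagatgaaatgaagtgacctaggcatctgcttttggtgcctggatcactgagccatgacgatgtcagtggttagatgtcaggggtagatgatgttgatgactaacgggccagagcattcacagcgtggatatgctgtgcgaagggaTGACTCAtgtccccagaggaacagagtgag
NOTCH4: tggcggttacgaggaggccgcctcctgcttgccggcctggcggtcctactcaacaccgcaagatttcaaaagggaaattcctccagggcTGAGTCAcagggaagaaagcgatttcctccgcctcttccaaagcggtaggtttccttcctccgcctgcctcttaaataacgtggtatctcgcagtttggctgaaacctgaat
FAM172A: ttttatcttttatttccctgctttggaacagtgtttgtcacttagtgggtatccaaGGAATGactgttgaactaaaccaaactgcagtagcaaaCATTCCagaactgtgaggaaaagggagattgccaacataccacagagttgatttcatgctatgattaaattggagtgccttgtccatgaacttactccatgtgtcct
ST8SIA4: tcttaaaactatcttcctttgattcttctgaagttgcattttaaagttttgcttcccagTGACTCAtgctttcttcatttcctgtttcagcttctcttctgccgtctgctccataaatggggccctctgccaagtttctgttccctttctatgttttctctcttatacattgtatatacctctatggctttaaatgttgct
CPS1: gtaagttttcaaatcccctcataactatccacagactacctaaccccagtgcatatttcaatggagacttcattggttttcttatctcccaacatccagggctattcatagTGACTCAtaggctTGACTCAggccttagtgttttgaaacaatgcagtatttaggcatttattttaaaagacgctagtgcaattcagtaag

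The first question was which regions were open on 1 matrix only. Stiff-only regions made up 5.48% of the merged regions and soft-only regions 1.07%. No p-value is given for them, since the smallest that an exact permutation test of 2 against 2 libraries allows is 0.333. When each list was cut to the 56362 peaks of the shortest list, best fold enrichment first, 2776 regions (3.54%) were stiff-only and 1867 (2.38%) soft-only, so the excess on the stiff side was smaller at equal list length. The stiff-only count was above the soft-only count in every setting plotted in the bar chart of counts. Leaving out any library raised both counts, since the rule then asks for fewer lists. The stiff-only count was 11380 and 8165 without soft replicates 1 and 2, and 15511 and 11122 without stiff replicates 1 and 2. The soft-only count was 5542 and 6965, and 2165 and 2715, in the same order.

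**Figure D1:**
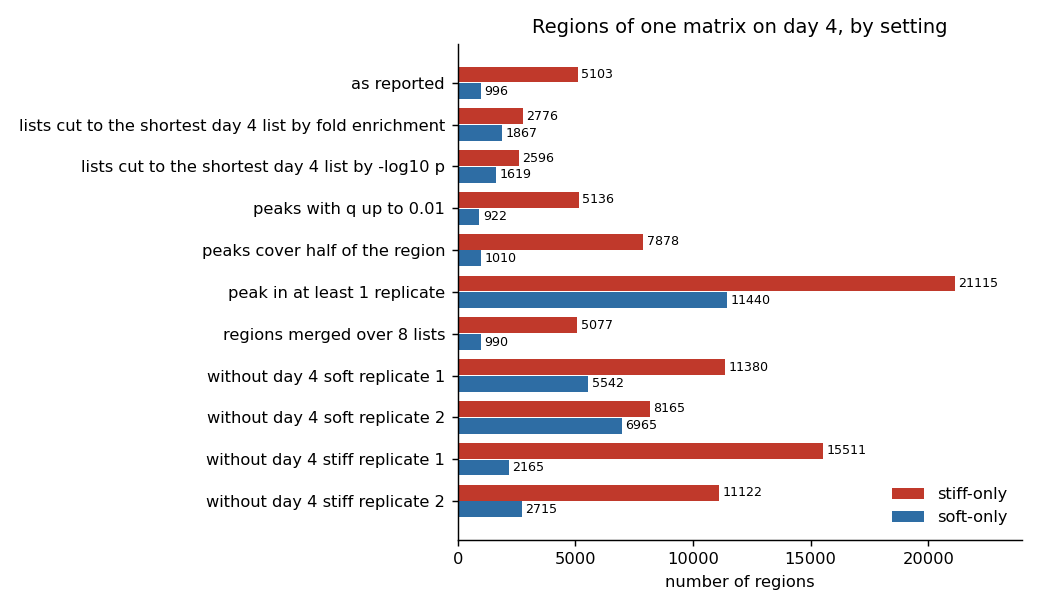
Number of stiff-only (red) and soft-only (blue) regions on day 4 (x axis) under each setting (y axis). The red bar is longer than the blue bar in every setting, from 5103 against 996 as reported to 2776 against 1867 with lists cut to equal length by fold enrichment.

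Regions of 1 matrix had lower peaks than shared ones. The median summit pileup, the number of fragments stacked at the summit, was 12 and 11 at stiff-only regions in the 2 stiff libraries and 8 and 7.5 at soft-only regions in the 2 soft libraries. At regions found in all 4 lists it was 22 and 18 in the soft and 33 and 29 in the stiff libraries. The lowest pileup of any day 4 peak was 4 or 5, so a typical soft-only peak stood only a few fragments above the detection limit, and a region missing from a list may still be accessible. Median fold enrichment, the deposited ratio of the summit pileup to that library's own local background, was 5.49 and 5.73 at stiff-only and 5.14 and 4.78 at soft-only regions. Of stiff-only regions 2.49% and of soft-only regions 3.11% had at least 50% of their sequence around the summit, in stretches of 32 bp, repeated elsewhere in the genome, against 1.58% of regions in all 4 lists.

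The best-ranked stiff-only regions lay next to genes of varied function. In each of the following regions both stiff libraries of day 4 had a peak and neither soft library of day 4 did. Each kept this status in both sets of lists cut to equal length. Such cuts remove only weaker peaks and could hardly change regions picked by rank. A region in an intron of DTNBP1, which encodes dysbindin, a subunit of a complex that builds lysosome-related organelles, had the best mean rank (chr6:15608695-15609250). Its fold enrichment was 13.6 and 17.9 in the stiff libraries, with pileups of 37 and 41. The next region (chr2:96675778-96676365) lay -18493 bp from the start of ANKRD36C, negative distances being upstream, with fold enrichment of 14.1 and 13.8. Of the sequence at its summit 54.5% recurs elsewhere in the genome, so its reads could have been placed at more than 1 copy. A region 43792 bp from the start of WDR36, a gene for ribosomal RNA processing, held 2 AP-1 matches and had fold enrichment of 11.8 and 15.5. One in an intron of ZNF229, a zinc finger gene, had 13.7 and 12.2. The other regions of the first 10 were nearest to CRYBA1 (a lens crystallin, 12.1 and 12.9), SLC26A4 (the anion exchanger pendrin, 10.98 and 14.4), SCGN (the calcium sensor secretagogin, 11.4 and 13.0), BICD2 (a dynein adaptor, 13.7 and 11.1), ARMH4 (10.7 and 14.1) and CD36 (a fatty acid receptor, 10.98 and 12.8). Of the 10 regions, only that of ARMH4 lay within 1 kb of a start of its own nearest gene, and that of ANKRD36C lay within 1 kb of the start of a non-coding gene. On day 2 the regions near WDR36, ZNF229 and CD36 had a peak in both stiff libraries and neither soft library. Each of the others had one in at least 1 soft library, and that near SLC26A4 in all 4 day 2 libraries. The nearest gene is given as a position only and need not be the gene that a region controls.

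Among stiff-only regions within 1 kb of the start of a protein-coding gene, the best ranked lay at ARMH4, at -770 bp from its start. It was followed by CAST, the calpain inhibitor calpastatin, at -53 bp, with fold enrichment of 10.4 and 10.5 in the stiff libraries. The promoter of SPTB, the erythroid spectrin beta chain, had 8.65 and 11.2, and that of PCYT1A, a rate-limiting enzyme of phosphatidylcholine synthesis, had 7.99 and 11.4. EPHX1, the microsomal epoxide hydrolase that detoxifies xenobiotics, had 8.86 and 10.1 at 55 bp from its start. ABR had 8.64 and 10.01. The others were PEX11A (peroxisome division, 7.64 and 11.3), RNF4 (a SUMO-targeted ubiquitin ligase, 8.11 and 10.3), CAMTA1 (a calmodulin-binding transcription activator, 8.73 and 9.16) and STON2 (an endocytic adaptor, 7.93 and 9.87). The soft lists of day 4 held no peak in any of these regions. This does not cover other starts of the same genes, where the soft lists may hold a peak. On day 2 the regions of CAST, ABR and STON2 had no peak in a soft library, while the others had one in D2 soft replicate 2.

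Soft-only regions with the best ranks reached fold enrichment of the same order. The first lay 46347 bp from the start of PRKRA, an activator of the double-stranded RNA kinase PKR (chr2:179268710-179269563), with 12.2 and 11.3 in the soft libraries and no peak in the stiff lists. The second lay 51951 bp from ADRA2A, the alpha-2A adrenergic receptor, with 12.5 and 10.8. A region in an intron of NAV3, a microtubule-associated navigator protein, had 11.8 and 9.61, and one upstream of CADM2, a cell adhesion molecule, had 11.6 and 9.46. A further region, nearest to RP11-685N3.1 with 10.6 and 12.1, consisted of sequence that recurs elsewhere at 100% of the stretches examined. Of these regions 4, near PRKRA, ADRA2A, NAV3 and CADM2, held an AP-1 match, beside 30.8% of all soft-only regions. On day 2 each of these regions had a peak in a stiff library, and those near PRKRA and NAV3 had none in a soft library. The best-ranked soft-only promoters had lower fold enrichment than these regions. They were the best of 43 soft-only regions within 1 kb of the start of a protein-coding gene, against 520 stiff-only ones. Their strength is therefore not compared with that of stiff-only promoters. DGKG, a diacylglycerol kinase, had 8.05 and 8.01, SNX19, a sorting nexin, had 7.88 and 6.23, PI3, the elastase inhibitor elafin, had 7.57 and 5.71, SCN2A, a sodium channel, had 5.14 and 8.08, and ENSG00000289761 had 8.41 and 6.93. A region at -540 bp from a start of ITGB1, the beta-1 integrin subunit that binds fibronectin, had 7.69 and 4.48, with pileups of 11 and 6. It was 1 of 15 regions of ITGB1, of which 8 were in all 4 lists, and every day 4 library had a peak within 1 kb of an ITGB1 start. Of the 31 regions that the naming rules picked for both sides all kept their side in both sets of cut lists and at q up to 0.01, 26 did when a library had to cover 50% of the region, and 30 did when regions were merged over 8 lists.

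Regions were then counted by nearest protein-coding gene. Of 16948 genes with a region, 3815 had at least 1 stiff-only and 903 at least 1 soft-only region, and 381 had both. At least 3 stiff-only regions were found at 255 genes, of which 199 had no soft-only region, while 13 genes had at least 3 soft-only regions. TENM3, a teneurin adhesion receptor, led with 10 stiff-only and 0 soft-only of 57 regions. Peaks lay in 24 and 19 of its regions in the soft and in 40 and 40 in the stiff libraries. SULF2, an extracellular sulfatase that edits heparan sulfate, had 8 stiff-only and 1 soft-only of 31 regions, among them its promoter (fold enrichment 9.44 and 6.05 in the stiff libraries, 151 bp from the start). Its regions with a peak numbered 11 and 7 in the soft and 18 and 23 in the stiff libraries. NPR3, the clearance receptor for natriuretic peptides, had 8 and 0 of 32, and a peak in 14 and 13 against 20 and 29 regions. The stiff libraries were the higher ones at all 3 genes, but the genes were picked for their stiff-only regions, which are part of these numbers, so the selection favours this order.

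COL8A1, the alpha-1 chain of type VIII collagen, had 7 stiff-only and 1 soft-only of 36 regions, with a peak in 21 and 19 regions in the soft and 24 and 26 in the stiff libraries. Of its stiff-only regions 4 lay in its own introns, with fold enrichment from 3.38 to 7.88. An AP-1 match was held by 5 of the 7, beside 28.0% of all stiff-only and 28.2% of all merged regions. Whether so small a count differs from these shares was not tested. TNS1, a tensin of focal adhesions, also had 7 stiff-only regions and no soft-only region, but all 7 lay in introns of the neighbouring non-coding gene DIRC3, 109304 to 442763 bp from the TNS1 start. PTPRM, a receptor tyrosine phosphatase of cell contacts, had 8 and 1 of 63, ADGRB3, an adhesion G protein-coupled receptor, had 9 and 3 of 76, and FRMPD4, a synaptic scaffold, had 6 and 0 of 30. On the soft side, PDE4D, a cAMP phosphodiesterase, had 5 soft-only and 2 stiff-only of 76 regions, CDH9, a cadherin, had 5 and 4 of 150, ADAMTS16, a metalloprotease, had 4 and 3 of 54, and PTPRO, a receptor tyrosine phosphatase, had 3 and 0 of 10. The stiff and soft libraries overlapped in their number of regions with a peak at PDE4D, CDH9 and ADAMTS16, and at PTPRO the soft libraries (10 and 7) lay above the stiff ones (4 and 5). In lists cut to equal length TENM3 had 3 stiff-only regions, SULF2 5, NPR3 3, COL8A1 2, TNS1 4 and FRMPD4 5, and CDH9 had 2 stiff-only and 8 soft-only regions. A gene with more regions nearest to it had more chances to enter this ranking.

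**Figure D2:**
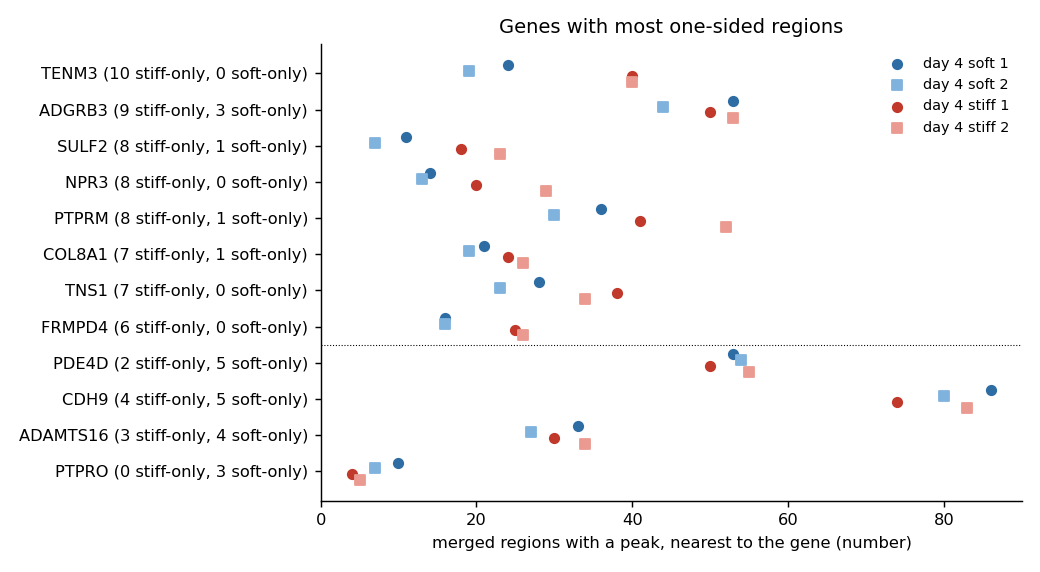
Number of merged regions with a peak in each day 4 library (x axis) for the genes with most stiff-only (above the dotted line) and most soft-only regions (below it), assigned by nearest start. Stiff libraries (red) lie to the right of soft libraries (blue) at TENM3, SULF2 and NPR3, and to the left at PTPRO, a direction that the choice of genes by their 1-sided regions favours.

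Lists of genes for the functions that matrix stiffness is known to touch were examined next. Counts for each list are stiff-only, then soft-only regions, beside 5.48% and 1.07% of all merged regions, with the counts of lists cut to equal length in brackets. In the cut lists 3.54% of all merged regions were stiff-only and 2.38% soft-only. The counts of the 2 sides are therefore closer in brackets for regions of any kind. Where a gene had several regions of a side, the values are those of the best-ranked one. For matrix genes, fibrillar collagens had 9 and 4 of 112 regions (6 and 7), basement membrane and network collagens 15 and 3 of 193 (6 and 2), crosslinking and modifying enzymes 6 and 0 of 84 (2 and 4), glycoproteins and proteoglycans 13 and 2 of 289 (3 and 3), and proteases and inhibitors 10 and 3 of 171 (4 and 8). LOX, the lysyl oxidase that crosslinks collagen, had a stiff-only region in an exon with fold enrichment of 5.36 and 8.37 in the stiff libraries. LOXL4, of the same enzyme family, had one with 7.14 and 6.81. COL5A1 and COL5A2, chains of type V collagen, had stiff-only regions with 8.24 and 8.05 and with 8.05 and 6.38, and COL5A1 also had a soft-only region with 6.16 and 4.48 in the soft libraries. COL3A1, of the type III collagen that accumulates in fibrosis, had a soft-only region at -103860 bp with 8.35 and 6.40 in the soft libraries. In the cut lists the stiff side no longer led for fibrillar collagens, crosslinking enzymes, glycoproteins or proteases, on counts of at most 8. Whether they differ from the shares of all regions was not tested.

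Adhesion and cytoskeletal genes came next. Focal adhesion and actin linker genes had 27 stiff-only (6.94%) and 4 soft-only of 389 regions (15 and 6), contractile and smooth muscle genes 14 and 1 of 176 (7 and 4), and integrins 6 and 2 of 162 (3 and 4). PTK2, the focal adhesion kinase, had a stiff-only region in its intron with fold enrichment of 8.06 and 10.9. LPP, a LIM protein of focal adhesions, had 2, the best at -19672 bp with 9.88 and 8.41 and also a soft-only region in an exon with 5.78 and 3.84, and PALLD, the actin crosslinker palladin, had 2, the best with 7.14 and 8.05. CALD1, the actin-binding caldesmon, had 3, the best with 9.81 and 8.91 in its intron, and 1 soft-only region with 3.85 and 4.48. MYOCD, the smooth muscle coactivator of SRF, had 3, the best in an exon with 6.59 and 9.91, TPM1, a tropomyosin, had one with 6.57 and 8.97, and ACTA2, the smooth muscle actin that marks activated stellate cells, had one at -31614 bp with 6.48 and 7.43. ITGB1 had the 1 soft-only region described above. Of these lists, focal adhesion genes and contractile genes had more stiff-only than soft-only regions in the cut lists, as did all merged regions (3.54% and 2.38%), and integrins did not.

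For transcription factors and signalling, AP-1 factors had 7 stiff-only and 0 soft-only of 143 regions (3 and 4), YAP and TEAD factors with known targets 16 and 0 of 258 (9 and 8), the TGF-beta pathway 23 and 4 of 368 (9 and 9), the ERK, JNK and p38 kinases with their feedback genes 18 and 2 of 281 (8 and 5), lineage and mesenchymal transcription factors 30 and 6 of 510 (12 and 12), and growth factors, receptors and IGF-binding proteins 17 and 2 of 312 (9 and 2). JUN had a stiff-only region at -46079 bp with fold enrichment of 9.73 and 10.9. ATF3, a stress-induced partner of AP-1, had one at -6432 bp with 5.80 and 8.09 that held AP-1 and CRE matches, and JUNB had one at its promoter with 4.46 and 5.13. CCN2, the matricellular growth factor and YAP target, had 3 stiff-only regions with AP-1 or TEAD matches, the best at -109462 bp with 7.62 and 9.98. WWTR1, which encodes TAZ, had one in its intron with 6.73 and 8.03, and TEAD1 had 2, the best with 6.01 and 6.66. TGFB2, a TGF-beta ligand, had 3, the best with 10.2 and 8.43, and SMAD7, the pathway's inhibitor, had 3, the best with 7.58 and 7.27. TGFBR2, the type II receptor, had 2 on each side. SPRY1 and SPRY2, inhibitors of receptor tyrosine kinase signalling, had stiff-only regions with 8.52 and 10.2 and with 9.45 and 7.13, and SPRY2 also had a soft-only region with 5.14 and 5.76. TCF21, a factor of quiescent stellate cells, had 2, the best with 9.64 and 11.4, and RUNX1, which acts in mesenchymal as well as blood cells, had 6 in its introns, the best with 7.68 and 11.8. With lists of equal length the soft-only counts equalled or passed the stiff-only counts for AP-1 factors, the TGF-beta pathway and lineage factors. These counts are small, and whether they differ from the 3.54% and 2.38% of all regions in the cut lists was not tested.

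Inflammatory cytokines and NF-kB genes had 9 stiff-only (5.29%) and 4 soft-only (2.35%) of 170 regions (1 and 5). Soft-only regions were 1.07% of all regions, but fibrillar collagens (3.57%) and cholangiocyte markers (3.23%) had higher soft-only shares than the inflammatory list. Whether these small counts differ from the share of all regions was not tested. The soft-only regions of the inflammatory list included 1 at TNFAIP3, a feedback inhibitor of NF-kB (5.18 and 5.44 in the soft libraries). They also included 1 at NFKBIA, which encodes the inhibitor IkB-alpha (5.15 and 3.67), and 1 in an exon of VCAM1, a leukocyte adhesion molecule (3.94 and 3.68). TNFAIP3 also had 3 stiff-only regions, one of them with 4.90 and 4.14 in the stiff libraries. The 12 housekeeping controls had 3 stiff-only and 0 soft-only of 65 regions (0 and 2). The 17 genes that the study names had 22 stiff-only (12.6%) and 2 soft-only of 174 regions (9 and 3), but they were chosen by the study on these samples and are not independent evidence. Beside COL8A1, JUN, JUNB, ATF3 and ACTA2 they included IGFBP3, an IGF-binding protein, with 4 stiff-only regions, ITGB2, a leukocyte integrin subunit, with 1 in an exon (4.52 and 9.26), and TIMP4, a metalloprotease inhibitor, with 1 (6.39 and 8.998). ACTG2, COL1A1, MMP9 and FOSL1 had none on either side.

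Regions were next placed in the annotation. Promoters, taken as within 1 kb of the start of a coding or long non-coding gene, held 697 stiff-only regions (13.7%, 95% Wilson interval 12.7 to 14.6) and 78 soft-only regions (7.83%, 6.32 to 9.67). The share was 31.5% of regions in all 4 lists and 19.8% of merged regions, and the shares of both kinds of 1-sided region lay below these. The intervals cover counting only, since neighbouring regions are not independent. The order of stiff-only and soft-only regions turned with lists cut to equal length by fold enrichment, to 9.91% and 16.7%, but not with lists cut by -log10 p (12.8% and 9.45%). The difference of 5.83 percentage points was 1.71 without stiff replicate 1 and 3.51 without stiff replicate 2. Introns held 49.6% of stiff-only and 53.3% of soft-only regions, and intergenic sequence 32.1% and 34.6%. The median distance to the nearest coding start was 27107 bp for stiff-only regions, 45172.5 bp for soft-only regions and 26939 bp for merged regions. More than 100 kb from any coding start were 22.5%, 31.8% and 23.3%. By chromosome, the stiff-only share ran from 4.59% on Y and 4.66% on 13 to 7.23% on 17, and the soft-only share from 0.509% on 19 to 1.498% on 4.

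Motifs of factors known for stiffness signalling were looked for in the 100 bp on either side of the summit, on both strands. The AP-1 motif was found at 28.0% of stiff-only regions (95% Wilson interval 26.8 to 29.3), 30.8% of soft-only regions (28.0 to 33.8), 30.0% of regions in all 4 lists and 28.2% of merged regions. The intervals of the 2 sides overlapped, and the difference turned sign in lists cut to equal length (30.8% and 29.9%) and when either soft library was left out. Outside promoters the shares were 30.3% and 31.5%, both under the 39.8% of regions in all 4 lists. The TEAD motif was found at 21.4% of stiff-only (20.3 to 22.5) and 16.0% of soft-only regions (13.8 to 18.4), against 18.5% of regions in all 4 lists and 18.2% of merged regions, and at 23.5% and 16.9% in the cut lists. Outside promoters the shares were 22.5% and 16.9%, and the 22.7% of regions in all 4 lists was close to the stiff-only share. The stiff-only share of TEAD motifs was above the soft-only share in every alternative run, but the difference of 5.42 percentage points was 2.58 and 2.31 without stiff replicates 1 and 2. By GC content, the stiff-only share outside promoters was above the soft-only share in 4 of 5 classes of GC content, and below it (22.5% and 23.9%) at 40 to 45%. RUNX motifs (TGTGGTT) hardly differed, with 6.37% and 6.53%. CTCF motifs (CCA, any 2 bases, AG, any 2 bases, GGC), of the insulator protein, were found at 5.13% and 5.12%, against 3.81% of merged regions and 2.50% of regions in all 4 lists. GC boxes (GGGCGG), typical of promoters, were found at 11.1% and 6.12%, against 21.9% of regions in all 4 lists.

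**Figure D3:**
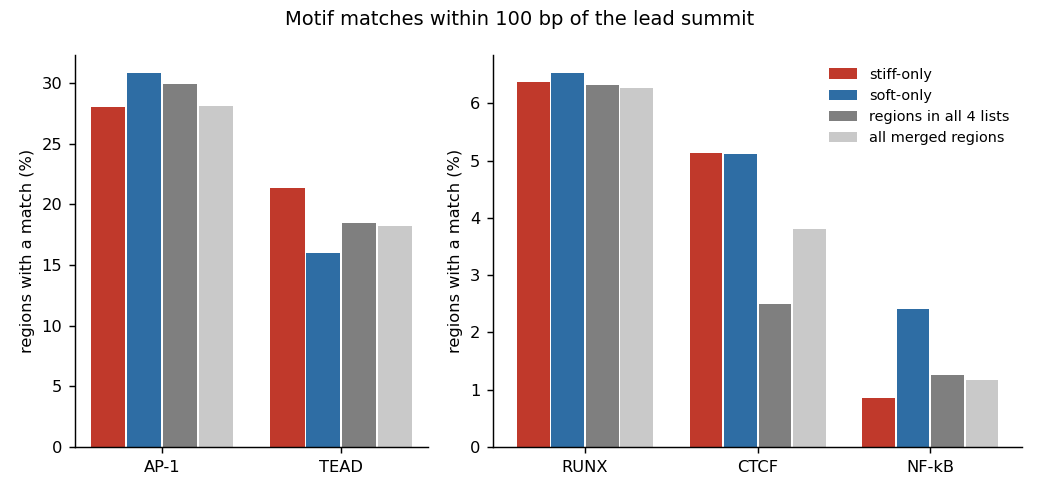
Share of regions with a motif within 100 bp of the lead summit (y axis, percent; the panels have different scales) for stiff-only regions, soft-only regions, regions in all 4 lists and all merged regions. TEAD matches were at 21.4% of stiff-only and 16.0% of soft-only regions, and NF-kB matches at 0.862% and 2.41%.

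The NF-kB motif (GGGA, any 2 bases, TTCC) was found at a higher share of soft-only than stiff-only regions in every alternative run. Alternatives were run for AP-1, TEAD, NF-kB and CTCF of the 13 motifs, those of NF-kB and CTCF being added after the values had been seen. It was found at 44 stiff-only regions (0.862%, 95% Wilson interval 0.643 to 1.16), 24 soft-only regions (2.41%, 1.62 to 3.56) and 1.17% of merged regions. In the cut lists the counts were 21 of 2776 and 43 of 1867. The difference of -1.55 percentage points was -0.199 without soft replicate 1 and -0.716 without soft replicate 2. The soft-only region near COL3A1 described above was one of the 24. Others, also named after their values were seen, lay near DACT1, an inhibitor of WNT and TGF-beta signals (9.11 and 5.75 in the soft libraries), and near MSN, the actin-membrane linker moesin (6.68 and 6.17).

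The day 2 libraries were not used to choose the regions and served as a second look. Stiff-only regions of day 4 had a day 2 peak in 6.80% and 32.5% of cases in the D2 soft libraries and in 42.0% and 50.5% in the D2 stiff libraries. Soft-only regions had one in 6.63% and 31.6% of cases in D2 soft and in 26.3% and 33.5% in D2 stiff. All merged regions had one in 30.9% and 55.9% in D2 soft and 58.1% and 62.5% in D2 stiff, above the shares of both kinds of 1-sided region in every day 2 library. Both D2 stiff libraries and no D2 soft library had a peak at 640 stiff-only (12.5%) and 62 soft-only regions (6.22%), against 5.58% of merged regions. Both D2 soft and no D2 stiff library had one at 25 (0.490%) and 13 (1.31%), against 0.294%. No day 2 library had a peak at 1373 stiff-only (26.9%) and 393 soft-only regions (39.5%). D2 soft replicate 1 held 29789 peaks, the fewest of the 8 lists. When all 8 lists were cut to that length, 1472 stiff-only regions had a day 2 peak in 33.8% and 43.6% (D2 soft) and 47.7% and 54.6% (D2 stiff) of cases, and all merged regions in 57.4% and 66.2% (D2 soft) and 65.5% and 65.9% (D2 stiff), where D2 soft replicate 1 was also the lowest. The 1411 soft-only regions had one in 51.3% and 54.9% (D2 soft) and in 51.2% and 42.7% (D2 stiff), so that both D2 soft libraries lay above both D2 stiff ones, narrowly so for the first replicate of each.

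**Figure D4:**
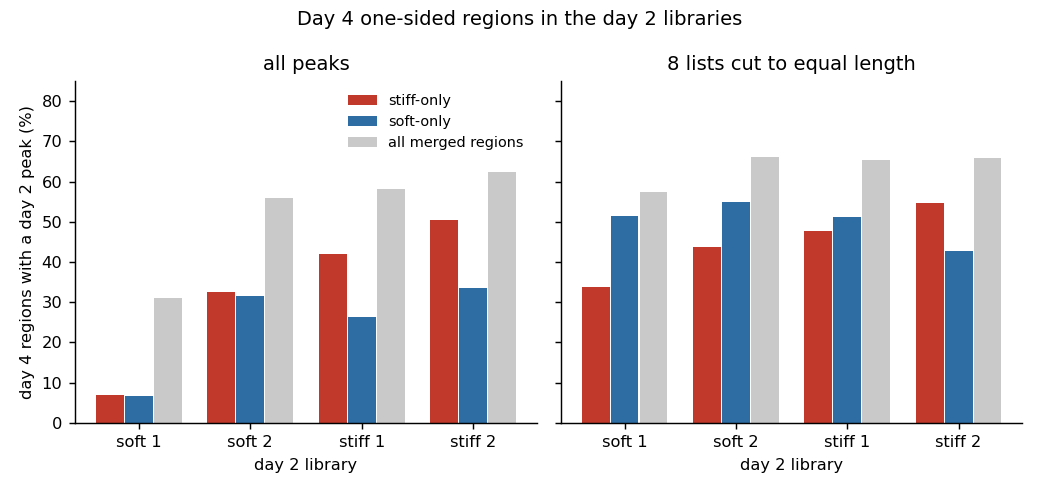
Share of day 4 stiff-only, soft-only and merged regions (y axis, percent) with a peak in each day 2 library (x axis), with all peaks and with the 8 lists cut to equal length. With equal lists the stiff-only bars are higher in the D2 stiff libraries (47.7% and 54.6%) than in the D2 soft ones (33.8% and 43.6%).

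Strength was compared at the 41334 regions in all 4 lists. Fold enrichment was ranked within each list over these regions and the ranks were turned into rank scores, so that 0 is the median region and 1 unit is 1 SD. The correlation of rank scores across regions was 0.804 between the stiff and 0.771 between the soft libraries, and 0.741 to 0.773 between libraries of different matrices. By limma, 1 region (0.00242%) was higher on the stiff matrix with an adjusted p under 0.05 and 0 (0.0%) were lower. At an unadjusted p under 0.05, 1876 were higher (4.54%) and 1495 lower (3.62%). The ranks of the stiff and soft libraries did not overlap at 7542 regions with higher (18.2%) and 8502 with lower ranks on the stiff matrix (20.6%). The median difference, stiff minus soft, was -0.0183 in rank score.

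The called region lay at chr1:1677742-1678261, at -571 bp from the start of ENSG00000290854, a non-coding gene, and 10705 bp from the start of NADK, the kinase that makes NADP. Its fold enrichment was 9.36 and 7.67 in the soft and 18.8 and 19.95 in the stiff libraries, with pileups of 14, 11, 57 and 46. It ranked 16362 and 20879 among shared regions in the soft and 21 and 26 in the stiff libraries, so the groups lay far apart. The difference was 3.14 ± 0.416 (SE) in rank score (limma adjusted p = 0.00999). Of the sequence at its summit 72.7% recurs elsewhere in the genome. On day 2 its fold enrichment was 7.92 and 15.9 in the soft and 19.1 and 16.6 in the stiff libraries. The second replicates (15.9 and 16.6) lay close, with list medians of 7.61 (soft) and 7.96 (stiff). The low soft value came from D2 soft replicate 1, which held only 29789 peaks. Fold enrichment is relative to each library's own background, so these values do not order the matrices on day 2. The call was lost with ranks of -log10 p (limma adjusted p = 0.262), with cut lists (0.0666), on the log2 scale (0.377) and without soft replicate 2 (0.127), over a range of 4.92e-07 to 0.377 in all alternatives.

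Other regions with the largest difference toward the stiff matrix did not pass the adjusted threshold. At the promoter of TSBP1-AS1, -31432 bp from NOTCH4 (chr6:32222836-32223715), fold enrichment was 10.01 and 6.34 in the soft and 15.8 and 19.2 in the stiff libraries. The difference was 2.71 ± 0.452 (SE) in rank score with a limma adjusted p of 0.0928, and its window, shown above, holds an AP-1 and an NF-kB match. At RGPD8, a member of a family of near-identical copies, 68.2% of the sequence recurs elsewhere, and the values were 6.07 and 4.75 against 13.9 and 14.3. DLC1, a tumour suppressor, had an intronic region with 4.81 and 3.77 against 12.8 and 10.2 (limma adjusted p = 0.140). ARHGAP23 had 4.02 and 3.35 against 8.93 and 10.6. The region in an intron of KIAA0825, nearest to FAM172A, held 2 TEAD matches and had 8.995 and 4.85 against 12.8 and 17.7. HLCS, the biotin ligase of carboxylases, had 6.64 and 4.52 against 13.4 and 13.2 at its promoter, and SUZ12, a core subunit of Polycomb repressive complex 2, had 7.11 and 8.84 against 15.6 and 16.7 at its promoter. In all of them every stiff library lay above every soft library, as their selection required.

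Toward the soft matrix the largest difference was at a region -183372 bp from ZBTB20, a transcription repressor of liver and brain. Fold enrichment was 14.4 and 9.63 in the soft and 7.15 and 5.31 in the stiff libraries, a difference of -2.34 ± 0.469 (SE) in rank score (limma adjusted p = 0.223). At the region near ST8SIA4, a polysialyltransferase, it was 9.44 and 8.07 against 3.84 and 4.78, and near CPS1, the first enzyme of the urea cycle, 10.3 and 7.41 against 4.94 and 4.33. Both hold AP-1 matches in the windows shown above, and both are far from the gene, at 125289 and 362467 bp. EIF3H, a translation initiation factor subunit, had 12.1 and 10.1 against 6.13 and 5.57 in an exon. BOC, a Hedgehog coreceptor, had 10.4 and 9.19 against 4.89 and 6.30, and OR2K2, an olfactory receptor, 12.7 and 11.9 against 8.95 and 5.98. FRRS1 had 8.35 and 8.43 against 3.84 and 5.57, at a region of which 63.6% recurs elsewhere. The region nearest to TMEM182 is taken up with the NF-kB motif. None of these 8 regions passed the adjusted threshold, and over the alternatives none of the 16 regions named in these paragraphs turned direction. They were picked for ranks that do not overlap, so leaving out a library or adding the replicate block could hardly turn them.

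**Figure D5:**
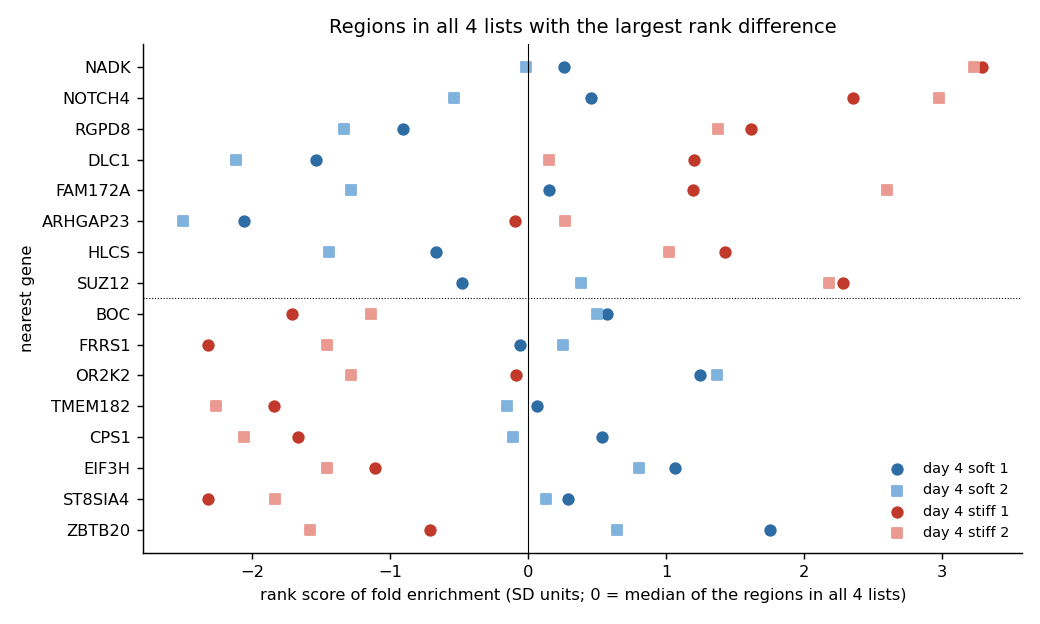
Rank score of fold enrichment (x axis, SD units) in each day 4 library at the 8 regions with the largest difference in each direction, named by nearest gene (y axis). At the NADK region the stiff libraries lie at 3.29 and 3.23 and the soft libraries at 0.263 and -0.0160, and below the dotted line the soft libraries lie to the right.

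Shared regions were also described by motif and gene list. At the 368 shared regions with an NF-kB match outside promoters, the median rank score was 0.0098 and 0.0535 in the soft and -0.232 and -0.113 in the stiff libraries, so both stiff medians lay below both soft ones. This order was not particular to NF-kB. It was also seen at regions with an AP-1 match (0.157 and 0.140 against 0.0686 and 0.132) or a RUNX match (0.112 and 0.0912 against 0.0147 and 0.0777). The median difference at the regions with an NF-kB match was -0.193, and -0.139 to -0.206 when 1 library was left out. Of these regions 12.2% ranked higher in both stiff libraries and 30.2% lower, beside 17.8% and 20.9% of all shared regions outside promoters. At the 203 of them with a peak in all 8 lists the median difference was -0.145 on day 2 and -0.211 on day 4, beside 0.0129 and -0.0361 over 15015 regions outside promoters. The median rank score on day 2 was -0.0580 and 0.0310 in the soft and -0.195 and -0.00982 in the stiff libraries, so the day 2 libraries overlapped. The region with the largest difference, in an intron of ENSG00000229209 and nearest to TMEM182 (chr2:103752017-103752654), had fold enrichment of 8.74 and 7.29 in the soft and 4.60 and 4.04 in the stiff libraries on day 4. On day 2 it had 7.85 and 7.60 against 3.71 and 5.64. In rank score over the regions with a peak in all 8 lists, its difference, stiff minus soft, was -2.21 on day 2 and -2.06 on day 4. Regions with a TEAD match had a median difference of 0.0005 and those with an AP-1 match -0.0651, with 16.4% higher and 22.5% lower.

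The gene lists showed small shifts at shared regions, most of them toward the soft matrix. Inflammatory cytokines and NF-kB genes had a median difference of -0.170 over 81 regions, with 12.3% higher and 32.1% lower on the stiff matrix, beside 18.2% and 20.6% of all shared regions. Focal adhesion and actin linker genes had -0.176 over 193 regions, with 13.5% higher and 30.1% lower. The 12 housekeeping controls had -0.157 over 38 regions, with 23.7% higher and 31.6% lower, so a shift of this size is also seen in genes chosen as controls. The lists for YAP and TEAD (-0.116), AP-1 factors (-0.0519), contractile genes (-0.127) and fibrillar collagens (-0.104) lay between these and the median of all regions. At the promoters of list genes, 286 shared regions of 243 genes were compared, of which 41 ranked higher (14.3%) and 67 lower (23.4%) in both stiff libraries, beside 19.1% and 19.9% of all 13014 shared promoter regions, and 0 passed the adjusted threshold (lowest limma adjusted p = 0.376), with 12 higher and 6 lower at an unadjusted p under 0.05. Of 12 promoter regions of the genes that the study names, 2 ranked higher (16.7%) and 4 lower (33.3%) in both stiff libraries, beside the same 19.1% and 19.9%. With 12 regions these counts do not set the named genes apart. None passed the adjusted threshold (lowest limma adjusted p = 0.584, with 1 higher and 0 lower at an unadjusted p under 0.05). IGFBP3 had fold enrichment of 4.83 and 4.67 in the soft and 7.63 and 8.35 in the stiff libraries at its promoter. Its stiff libraries were the higher ones, but the difference of 0.957 ± 0.414 (SE) in rank score did not pass the adjusted threshold (limma adjusted p = 0.584). The other higher one was COL8A1, with 4.72 and 3.94 against 5.56 and 6.71. The 4 lower ones were the AP-1 genes FOSL2, JUN and FOSL1, with rank score differences of -0.790, -0.624 and -0.344, and COL1A1, the main chain of type I collagen, with -0.483. None of these 4 had an unadjusted p under 0.05 by limma, so no lower accessibility is read from them. At the promoter of ACTA2 the libraries overlapped, with 13.2 and 9.35 against 12.1 and 14.3.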

How the data were processed

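According to the study's methods and processing notes, the authors trimmed reads with Trim Galore, aligned them to hg19 with Bowtie2 2.4.1, removed duplicates with Picard, handled intervals with bedtools 2.24.0 and ran MACS2 separately on every library, keeping peaks with a q-value up to 0.05. The deposited peak lists hold fold enrichment, a ratio of the summit pileup to the local background, the -log10 p and -log10 q of each peak, a display score that is 10 times the -log10 q, and the summit offset. They hold no read counts, so the study's DiffBind fit was not repeated here. Of the regions and lists picked, 1 soft-only region and 1 gene list are not reported here.

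Peaks on 24 chromosomes were merged into regions by an overlap of 1 bp. For limma (3.58.1, in R 4.3.3), the best fold enrichment in each region was ranked within its list and turned into a normal score, and p-values were adjusted by Benjamini-Hochberg over all 41334 shared regions. Python 3.11.15 (pandas 2.3.3, numpy 2.4.6, scipy 1.17.1, pysam 0.24.0) served for all else, with GENCODE 44 gene models on hg19 coordinates and each region assigned to the gene with the nearest start. The rank test was tested on simulated data. Replicate numbers came from the labels, and numbers inside the peak names differ from them. Same-numbered libraries did not deviate together (correlation of deviations -0.00867), so the numbers were not used as pairs.

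The members and the 23 gene lists (353 genes, of which 352 are in the annotation) were chosen with earlier results of these data known. Regions were named by fixed rules: the best mean ranks of each side, in all regions and within 1 kb of coding starts, the 8 largest rank differences in each direction whose groups did not overlap, the genes with most 1-sided regions, and up to 4 genes of each list by best rank. Alternatives changed the list length, the q limit, the overlap, the number of replicates, the motif window, the annotation, the scale and the replicate block.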

Additional observations from a re-analysis of the deposited data

How the results depend on the processing

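Counts of regions rest on thresholds. Stiff-only and soft-only regions numbered 5103 and 996 as reported, 2776 and 1867 with lists cut to the shortest by fold enrichment, 2596 and 1619 with lists cut by -log10 p, and 21115 and 11440 when a peak in 1 replicate was enough. With peaks covering 50% of the region the stiff-only count was 7878. Leaving out 1 library gave 8165 to 15511 stiff-only and 2165 to 6965 soft-only regions. The promoter share was 10.2% and 4.32% with coding starts only and 9.91% and 16.7% with lists cut by fold enrichment, which turned the difference to -6.80 percentage points, and the stiff-only share was 11.04% to 14.8% when 1 library was left out.

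AP-1 shares were 19.3% and 21.4% within 50 bp of the summit, the stiff-only share was 30.8% with cut lists and 30.3% outside promoters, and leaving out 1 library gave 25.0% to 29.5% of stiff-only and 19.97% to 33.8% of soft-only regions. The AP-1 difference turned from -2.78 percentage points to 0.823 with cut lists, 9.06 without soft replicate 1 and 6.71 without soft replicate 2, and was -8.77 to 9.06 over the 4 libraries left out. TEAD shares were 12.7% and 9.04% within 50 bp, and the stiff-only share was 23.5% with cut lists and 19.1% to 21.9% when 1 library was left out. NF-kB shares were 0.412% and 1.004% within 50 bp, and the soft-only share was 1.23% to 2.12% when 1 library was left out. CTCF shares were 3.64% and 3.21% within 50 bp. The NF-kB and CTCF alternatives, the promoter shares of lists cut by -log10 p and the gene list counts of cut lists were chosen after seeing the data. With all 8 lists cut to equal length, the day 2 shares became 33.8%, 43.6%, 47.7% and 54.6% for stiff-only and 51.3%, 54.9%, 51.2% and 42.7% for soft-only regions, in the order D2 soft 1 and 2, D2 stiff 1 and 2. The causes were not tested.

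In the rank test, limma called 1 region higher and 0 lower, with 1876 and 1495 at an unadjusted p under 0.05. The number called higher was 0 with ranks of -log10 p, with cut lists and on the log2 scale, 2 with all 8 libraries in the fit, and 0 to 5 when 1 library was left out, when the number called lower was 0 to 2. In those fits the lone library is assumed to vary like the other group. With the replicate block, 52 were called higher and 13 lower. The labels share only the replicate number between the matrices, so these calls were not used. The interaction of matrix and day called 0 regions (limma, with 619 higher and 658 lower at an unadjusted p under 0.05). Over the alternatives some of the 16 regions named in the rank comparison crossed the adjusted threshold, and none turned direction. Their choice by ranks that do not overlap favours a stable direction.

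With 2 libraries a matrix and peaks of a few fragments, a missing peak limits accessibility to below the caller's threshold only. Estimated depth and list length were higher in both stiff libraries, so depth and matrix cannot be told apart in the uncut counts. The nearest gene need not be the target, and motif shares depend on the window and on GC content.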

Other observations

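Genes that mark other liver cell types also had regions of 1 matrix, although few of them had a promoter peak. LYVE1, a hyaluronan receptor of sinusoidal endothelium, had 2 regions, of which 1 was stiff-only with fold enrichment of 9.89 and 8.48 in the stiff libraries. VWF, the von Willebrand factor of endothelial cells, had 3 stiff-only of 12 regions and a peak in 6 and 7 of them in the soft and 9 and 12 in the stiff libraries. HNF4A, a master regulator of hepatocytes, had 1 stiff-only of 8 regions (7.51 and 6.81), and CYP3A4, a drug-metabolising enzyme of hepatocytes, had 2 of 3. CD163, a macrophage scavenger receptor, had 1 of 2 (6.59 and 7.43). None of these 5 genes had a promoter peak in any day 4 library. On the soft side, SOX9, a factor of bile duct and activated stellate cells, had 2 soft-only regions (7.34 and 7.97, and 8.30 and 6.78 in the soft libraries) and 1 stiff-only of 59, and KRT7, a keratin of bile ducts, had 1 soft-only of 4 (6.12 and 4.69). As lists, hepatocyte markers had 3 stiff-only and 0 soft-only of 20 regions, cholangiocyte markers 2 and 3 of 93, endothelial markers 5 and 1 of 70, macrophage and leukocyte markers 4 and 0 of 44, and stellate cell markers 6 and 2 of 92, beside 5.48% and 1.07% of all merged regions. In lists cut to equal length the counts were 1 and 0 for hepatocyte, 0 and 4 for cholangiocyte, 1 and 2 for endothelial, 3 and 0 for macrophage and leukocyte, and 2 and 2 for stellate cell markers. Over all merged regions of the cut lists the shares were 3.54% and 2.38%.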
